A study of Mus musculus with 4 samples.

Results

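Protocadherins are transmembrane adhesion proteins of the cadherin superfamily, best known from the developing nervous system, where they bind the same protein on a neighbouring cell. The clustered genes Pcdha, Pcdhb and Pcdhg lie in tandem on 1 chromosome, each variable exon has its own promoter, and a single neuron switches on a small random choice of them with the help of CTCF, cohesin and DNA methylation, which gives the cell a surface identity used in self-avoidance. The non-clustered genes are scattered over the genome, are grouped into delta1 and delta2 families by their cytoplasmic tails, and act in axon growth, synapses and vessel walls.

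The members were all protein-coding genes of the deposited tables whose symbol begins with Pcdh. They numbered 64 of 21981 genes in any table, with 52 clustered genes (12 Pcdha, 20 Pcdhb and 20 Pcdhg) and 12 non-clustered genes. Pcdha11 is listed under 2 Ensembl identifiers, which were kept apart. The clustered genes lay on chromosome 18 (GRCm38), with Pcdha from base 36939205 to 37187657, Pcdhb from 37294812 to 37524479 and Pcdhg from 37661793 to 37841873. All of them are on the plus strand.

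The samples were bulk RNA sequencing libraries of untreated microglia, the resident macrophages of the brain, taken from cerebral cortex of E16 mouse embryos, at day 16 of gestation. Control 1 and control 6 had the genotype Bach1 fl/fl, in which the gene for a heme-binding transcriptional repressor carries loxP sites. The other genotype, represented by cKO 2 and cKO 5, was Bach1 cKO, named Bach1cKO-Cx3 in the series text, where Cx3 names the driver of the deletion. The labels say neither how the cells were isolated nor whether libraries came from separate embryos or pools, so p-values measure the spread between these samples only. Triplicates are mentioned in the series text, and any further samples were not analysed here.

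The libraries held 17233115 to 19305078 counted reads, and a count of 0 allows up to 3 reads, or 0.155 to 0.174 CPM (counts scaled to a fixed total per library). Bach1 itself was at 45.8 CPM in control 1 and 21.6 in control 6, with 30.0 in cKO 2 and 35.4 in cKO 5, so its level did not separate the genotypes. The counts are per gene and were not split by exon, so whether the floxed stretch was lost could not be checked, and each direction rests on the labels. All 15 microglia markers were detected in every library, among them Csf1r, P2ry12 and Tmem119, but their summed level differed within each genotype. It was 26502 CPM in control 1 and 42103 in control 6, with 9535 in cKO 2 and 37137 in cKO 5. The library labelled cKO 2 thus stood apart with the lowest microglia sum. It also had the highest sums of excitatory neuron markers (4046 CPM, against 889 to 1559 in the others), interneuron markers (256 against 35.9 to 64.6) and radial glia and astrocyte markers (909 against 106 to 428). The excitatory neuron sum understates the difference of most of its genes, since Mef2c, which microglia also express, went the other way with 442 and 565 CPM in the controls against 271 and 584 in cKO. Its median gene was 3.05-fold higher in control 1 than in control 6 and 9.60-fold higher in cKO 2 than in cKO 5, against 1.72-fold and 4.55-fold for the sum. Endothelial markers summed to 5437 CPM in control 1 and 3975 in cKO 2, against 1201 in control 6 and 807 in cKO 5. Pericyte and meningeal fibroblast markers summed to 3630 and 3289 CPM in control 1 and cKO 2, against 702 and 267 in control 6 and cKO 5. Single markers without reads were Gfap and Col1a1 in cKO 5, Dcn and Cd163 in control 6 and Sox10 in control 1. Marker sums for border-associated macrophages (130 to 539 CPM), erythroid cells (110 to 306 CPM) and the oligodendrocyte lineage (31.3 to 99.1 CPM) were lower in each library than those of microglia. Results that rest on cKO 2 are therefore given with and without it.

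Protocadherin reads were found in all 4 libraries, with the highest level of 56 of the 64 members in cKO 2 and of the other 8 in control 1. Of the 64 genes, 46 were at least 2-fold higher in control 1 than in control 6 and 1, Pcdhac2, was at least 2-fold lower, against 25% and 9.47% of all genes. Between the cKO libraries, 56 of the 61 genes listed for both were at least 2-fold higher in cKO 2 and 0 lower (35.4% and 16.3% of all genes). The 2 libraries of a genotype thus differed in most members. Between cKO 2 and control 1, 30 of 64 were at least 2-fold higher in cKO 2 and 0 lower (23.3% and 13.8% of all genes). Between cKO 5 and control 6, 11 of 61 were at least 2-fold higher and 21 lower in cKO 5 (12.1% and 14.5% of all genes). The neuronal, vascular and microglia marker sums given above moved with the same split of libraries, and their part in these differences was not tested.

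The non-clustered genes held both the most abundant member, Pcdh18, and sparsely read ones such as Pcdh15. All 12 were at least 2-fold higher in control 1 than in control 6, where 25% of all genes were, and all 12 were at least 2-fold higher in cKO 2 than in cKO 5, where 35.4% of all genes were. Summed over the 12 genes, the level was 324 CPM in control 1 and 55.2 in control 6, with 446 in cKO 2 and 31.4 in cKO 5. In bulk RNA, more cells of an expressing type and more RNA per cell cannot be told apart.

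Among the delta2 genes, Pcdh18 (ENSMUSG00000037892, minus strand of chr3:49743296-49757325 in GRCm38), whose protein binds the adaptor Dab1, had the highest level per exon length of any member, with a mean of 17.2 CPM per kb over the 4 libraries. Its level was 158 CPM in control 1 and 20.4 in control 6, and 179 in cKO 2 and 11.6 in cKO 5. Each genotype thus held 1 high and 1 low library, and the groups overlapped. The log2 fold change was -0.06 ± 1.45 (SE, edgeR quasi-likelihood test, adjusted p = 0.9997). Pcdh17 (chr14:84443563-84537060), a synaptic and axonal protocadherin, showed the same order, with 16.4 and 3.37 CPM in control 1 and control 6 and 20.2 and 0.725 CPM in cKO 2 and cKO 5. Its difference between the cKO libraries was 27.9-fold (95% interval 16.4 to 51.5, counting error only).

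Pcdh8 (chr14:79766775-79771312), also called arcadlin and induced by synaptic activity, was at 10.6 CPM in control 1 and 1.74 in control 6, with 37.2 in cKO 2 and 1.14 in cKO 5. The single library cKO 2 stood above the other 3, and the lowest value came from the same genotype. The log2 fold change of 1.47 ± 1.66 (SE) had an adjusted p of 0.9997 in the edgeR quasi-likelihood test, and without cKO 2 it was -2.26. Pcdh10 (chr3:45378398-45435623), which acts in the growth of striatal and thalamocortical axons, had 7.15, 3.02, 20.9 and 2.80 CPM in controls 1 and 6 and in cKO 2 and 5. For Pcdh19 (chrX:133582860-133688987), mutated in an X-linked epilepsy, the values were 12.7, 2.55, 13.3 and 1.19 CPM in the same order. In these genes too, control 6 and cKO 5 were the 2 low libraries.

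Promoter sequence was read for 9 of the 12 non-clustered genes from RefSeq (GRCm38.p6), as the 250 bases before each annotated start. The motif CCAAT, or its reverse complement ATTGG, bound by the factor NF-Y, was searched on both strands. It was found in 33.8% of all 32851 promoter windows, in 8 of the 9 member genes and in 5 of 5 delta2 genes. The search was not planned beforehand, and members are counted by gene but the share over all by window. The promoters of 4 delta2 genes are shown, picked after their values were seen as the gene with the highest level per length (Pcdh18), the one with 2 matches (Pcdh17) and the 2 delta2 genes with the largest ratio of cKO 2 to control 1 (Pcdh8 and Pcdh10), and the capitals mark each match to the motif. They are written 5′ to 3′ on the strand of the gene, at chr3:49757317-49757566 (minus strand) for Pcdh18, chr14:84443313-84443562 (plus strand) for Pcdh17, chr14:79771313-79771562 (minus strand) for Pcdh8 and chr3:45378148-45378397 (plus strand) for Pcdh10.
Pcdh18: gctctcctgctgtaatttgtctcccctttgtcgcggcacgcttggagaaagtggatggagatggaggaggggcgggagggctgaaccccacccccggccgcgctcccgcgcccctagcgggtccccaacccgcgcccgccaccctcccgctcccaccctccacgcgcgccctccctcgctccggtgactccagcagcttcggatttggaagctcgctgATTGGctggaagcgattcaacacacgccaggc
Pcdh17: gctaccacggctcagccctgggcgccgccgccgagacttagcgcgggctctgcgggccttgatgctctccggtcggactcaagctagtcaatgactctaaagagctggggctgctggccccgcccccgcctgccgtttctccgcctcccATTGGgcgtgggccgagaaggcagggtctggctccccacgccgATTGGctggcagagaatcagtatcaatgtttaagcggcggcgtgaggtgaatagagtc
Pcdh8: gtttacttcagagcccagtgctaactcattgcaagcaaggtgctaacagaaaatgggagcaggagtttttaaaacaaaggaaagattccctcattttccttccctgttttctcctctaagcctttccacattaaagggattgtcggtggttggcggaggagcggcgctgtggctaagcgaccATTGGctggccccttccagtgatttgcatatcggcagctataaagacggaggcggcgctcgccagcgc
Pcdh10: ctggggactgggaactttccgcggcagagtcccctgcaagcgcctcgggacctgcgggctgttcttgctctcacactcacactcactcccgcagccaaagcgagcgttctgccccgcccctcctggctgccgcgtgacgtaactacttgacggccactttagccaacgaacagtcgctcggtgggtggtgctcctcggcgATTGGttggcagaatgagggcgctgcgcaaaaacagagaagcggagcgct
The longer run ATTGGCT, or AGCCAAT on the other strand, was chosen after these sequences were seen, and overlaps the first motif. It occurred in 4 of the 5 delta2 genes (Pcdh8, Pcdh17, Pcdh18 and Pcdh19), in none of the 4 other member genes with a window, and in 7.25% of all windows. Another motif, CGCT, was also counted on both strands, and was in all 10 member windows and in 55.7% of all windows. A match describes the letters in the window and was not set against any binding data.

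Among the delta1 genes, Pcdh9 (chr14:93013410-93890679), a neural adhesion gene, was at 31.9 CPM in control 1 and 6.85 in control 6, with 81.0 in cKO 2 and 5.91 in cKO 5. Its highest library was cKO 2, and control 6 and cKO 5 were close to each other. The log2 fold change of 1.01 ± 1.31 (SE) was within the spread of the libraries (edgeR quasi-likelihood test, adjusted p = 0.9997). Pcdh7, whose cytoplasmic tail binds the SET protein, had 4.92, 2.03, 12.02 and 0.673 CPM in controls 1 and 6 and in cKO 2 and 5. The X-linked Pcdh11x had 3.49, 0.522, 5.14 and 0.207 CPM in that order. Pcdh1, a delta1 gene also studied in airway epithelium, differed from these in being level between the high libraries, at 12.7 CPM in control 1 and 11.7 in cKO 2, with 5.98 in control 6 and 2.28 in cKO 5. The 2 X-linked members were low in control 6 and cKO 5 alike. These libraries differed in sex-linked RNA, whose part in the levels was not tested. Xist was at 181 CPM in control 1 and 275 in cKO 5 and had no reads in control 6 and cKO 2, and the Y-linked Ddx3y had reads in control 6 and cKO 2 alone.

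Pcdh12, known as VE-cadherin-2 and found in endothelium, was the non-clustered gene with the second highest level per exon length, with a mean of 5.29 CPM per kb. It was at 62.2 CPM in control 1 and 8.24 in control 6, with 52.9 in cKO 2 and 4.82 in cKO 5. Control 1 was its highest library, and the log2 fold change was -0.43 ± 1.35 (SE, edgeR quasi-likelihood test, adjusted p = 0.9997). Pcdh20 was at 3.20, 0.464 and 10.8 CPM in control 1, control 6 and cKO 2, and had no reads in cKO 5. Against the floor of 3 reads, Pcdh20 was at least 69.5-fold higher in cKO 2 than in cKO 5. Pcdh15, part of the tip link of hair cells in the inner ear, had 8, 2, 31 and 3 reads in controls 1 and 6 and in cKO 2 and 5, and was the 1 non-clustered gene too low to be tested.

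**Figure D1:**
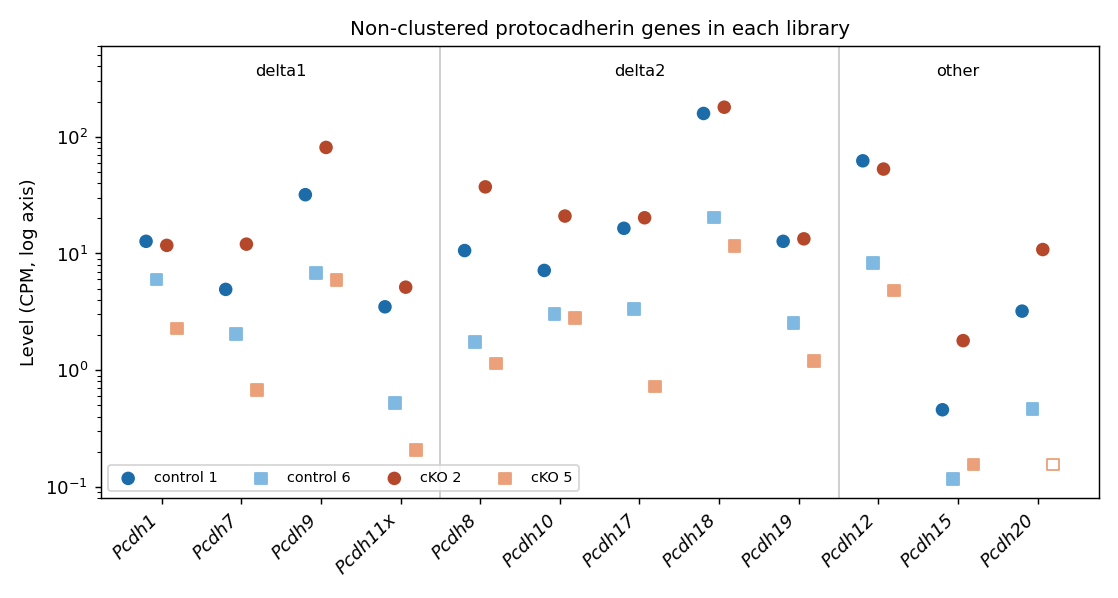
Level of each non-clustered protocadherin gene in the 4 libraries, in CPM on a log axis, with a point for each library and a hollow square at the 3-read floor for a gene without reads. Control 6 and cKO 5 lie below control 1 and cKO 2 for all 12 genes, as for Pcdh18 at 20.4 and 11.6 CPM against 158 and 179.

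The 2 high libraries, control 1 and cKO 2, differed from each other by an amount that varied from gene to gene. Pcdh12 (0.850-fold, 95% interval 0.777 to 0.929), Pcdh1 (0.923-fold, 0.759 to 1.12), Pcdh19 (1.05-fold, 0.870 to 1.27) and Pcdh18 (1.13-fold, 1.07 to 1.19) were at nearly the same CPM in cKO 2 as in control 1. In contrast, Pcdh8 was 3.51-fold higher in cKO 2 (2.98 to 4.16), Pcdh10 2.92-fold (2.38 to 3.61), Pcdh9 2.54-fold (2.30 to 2.81) and Pcdh7 2.44-fold (1.89 to 3.18). The remaining genes were Pcdh17 at 1.23-fold (1.05 to 1.44), Pcdh11x at 1.47-fold (1.05 to 2.07), Pcdh20 at 3.37-fold (2.49 to 4.63) and Pcdh15 at 3.91-fold (1.76 to 9.85), so the 12 genes spread over a range with intermediate values. Over the same pair of libraries, the summed endothelial markers were 0.731-fold and the summed pericyte and meningeal fibroblast markers 0.906-fold, while the summed excitatory neuron markers were 2.59-fold and the summed interneuron markers 3.97-fold. The part of these marker sums in the result was not tested. All intervals between libraries cover counting error only, since reads without molecular identifiers are not independent molecules.

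**Figure D2:**
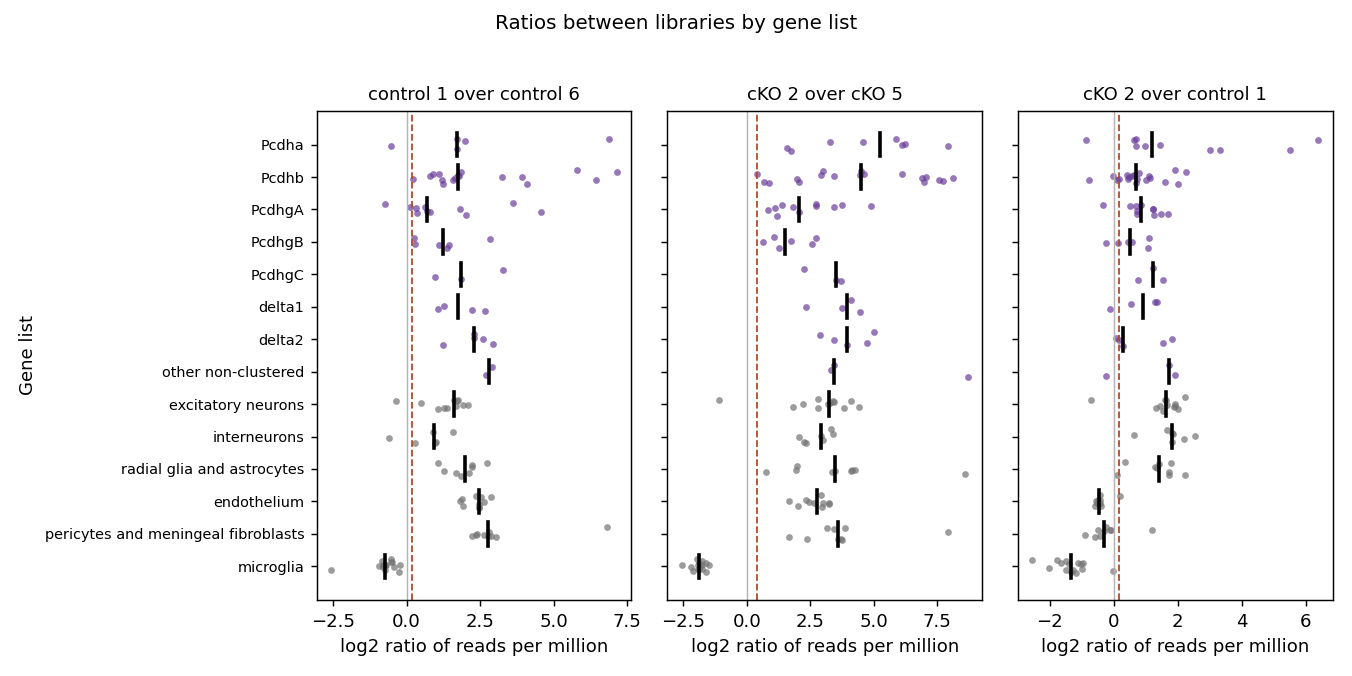
Log2 ratio of CPM between 2 libraries for the genes of each protocadherin family and each marker list, in 3 pairs of libraries, with a point per gene that had at least 20 reads in the pair, a black bar at the list's median and a dashed line at the median of all genes. The 5 delta2 genes sit above the dashed line within both genotypes (medians 2.30 and 3.95), while between cKO 2 and control 1 their median was 0.30 and Pcdh8 and Pcdh10 stand far above the line, and the microglia markers sit below 0 in all 3 panels.

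The clustered genes together reached 170 CPM in control 1 and 62.4 in control 6, with 328 in cKO 2 and 52.6 in cKO 5. Their sum was below that of the non-clustered genes in control 1 and cKO 2 and above it in control 6 and cKO 5. Their exons overlap one another, since the Pcdha and the Pcdhg genes share constant exons. From 48.6% to 83.2% of the exonic bases of a Pcdha gene and 31.5% to 73.6% of those of a Pcdhg gene also belonged to another gene, against at most 9.67% for Pcdhb. How reads in shared bases were counted is not stated in the sources used here, so counts of single Pcdha and Pcdhg genes are uncertain.

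The Pcdhg cluster gave the highest sum of the 3, at 93.9 CPM in control 1 and 41.1 in control 6, with 171 in cKO 2 and 38.2 in cKO 5. The gap between libraries of 1 genotype was smaller here than for the sum of the non-clustered genes. Control 1 exceeded control 6 by 2.29-fold (95% interval 2.09 to 2.50) and cKO 2 exceeded cKO 5 by 4.47-fold (4.13 to 4.86), against 5.87-fold (5.48 to 6.29) and 14.2-fold (13.1 to 15.4) for the 12 non-clustered genes together. These intervals do not overlap, although they compare single libraries. Pcdh18 gave 2766 of the 5662 non-clustered reads in control 1, and differed by 7.77-fold between the controls and 15.5-fold between the cKO libraries. For Pcdh1 these values were 2.13-fold (1.68 to 2.71) and 5.15-fold (3.70 to 7.30), with intervals that overlap those of the Pcdhg sum. Within the cluster, the 6 PcdhgB genes differed least, by 1.91-fold and 2.95-fold, and the 3 PcdhgC genes differed most, by 5.25-fold and 11.1-fold. All 20 Pcdhg genes had reads in all 4 libraries.

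The C-type genes at the end of the Pcdhg cluster are regulated apart from the others and are less subject to random choice. Pcdhgc3, whose protein binds Axin1, was at 11.4 CPM in control 1 and 1.16 in control 6, with 19.2 in cKO 2 and 1.66 in cKO 5. Pcdhgc4, needed for the survival of neurons, was at 7.27, 1.97, 21.3 and 1.61 CPM in that order. Both genes were therefore low in control 6 and cKO 5. This order was not particular to C-type genes, since Pcdhga3 had 3.38, 0.928, 8.03 and 0.725 CPM. Pcdhga8, in contrast, was higher in control 6 (3.08 CPM) than in control 1 (1.83 CPM). Pcdhgc5, a C-type gene of later development, was at 1.37, 0.696, 3.29 and 0.673 CPM.

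Of the B-type genes, Pcdhgb4 and Pcdhgb2 were more even. Pcdhgb4 was at 9.84 CPM in control 1 and 8.07 in control 6, with 10.8 in cKO 2 and 4.40 in cKO 5, and its log2 fold change was -0.37 ± 0.59 (SE, edgeR quasi-likelihood test, adjusted p = 0.9997). Control 1 and control 6 thus differed by 1.22-fold, with a 95% interval of 0.9703 to 1.54 that includes 1. Pcdhgb6 was at 10.1, 4.70, 21.7 and 6.37 CPM in controls 1 and 6 and in cKO 2 and 5, with cKO 2 the highest. Pcdhgb2 was the most even of the named members, at 4.81, 4.06, 6.64 and 4.30 CPM. Over the same libraries the summed microglia markers ranged from 9535 to 42103 CPM.

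The Pcdhb genes, each a single exon with no constant part, summed to 65.6 CPM in control 1 and 18.98 in control 6, with 128 in cKO 2 and 12.4 in cKO 5. Pcdhb17 had the largest summed reads, with 12.6, 3.71, 19.7 and 0.259 CPM in controls 1 and 6 and in cKO 2 and 5. It was lowest in cKO 5 with 5 reads, and its log2 fold change was 0.10 ± 1.74 (SE, edgeR quasi-likelihood test, adjusted p = 0.9997). For Pcdhb7, the values were 5.38, 2.90, 20.3 and 2.64 CPM, for Pcdhb20 7.73, 2.44, 15.8 and 0.622 CPM, and for Pcdhb21 5.21, 2.26, 7.28 and 0 CPM. Pcdhb22 kept its level in cKO 5, with 58, 24, 77 and 65 reads in controls 1 and 6 and in cKO 2 and 5.

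The Pcdha genes were the lowest of the 3 clusters, with 10.9 CPM in control 1 and 2.38 in control 6, with 29.3 in cKO 2 and 1.97 in cKO 5. Pcdha12 had 34, 8, 92 and 10 reads in controls 1 and 6 and in cKO 2 and 5, Pcdha9 had 13, 2, 108 and 0, and Pcdha5 had 9, 13, 93 and 1. Reads of these genes came mostly from cKO 2. Pcdha11 (ENSMUSG00000007440) had 59 reads in control 1 and 32 in cKO 2, with 0 in control 6 and 1 in cKO 5. The C-type gene Pcdhac2, the Pcdha form used by serotonergic neurons, had 0 and 6 reads in the controls and 41 and 15 in cKO 2 and cKO 5, and Pcdhac1 had 9, 0, 5 and 0.

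**Figure D3:**
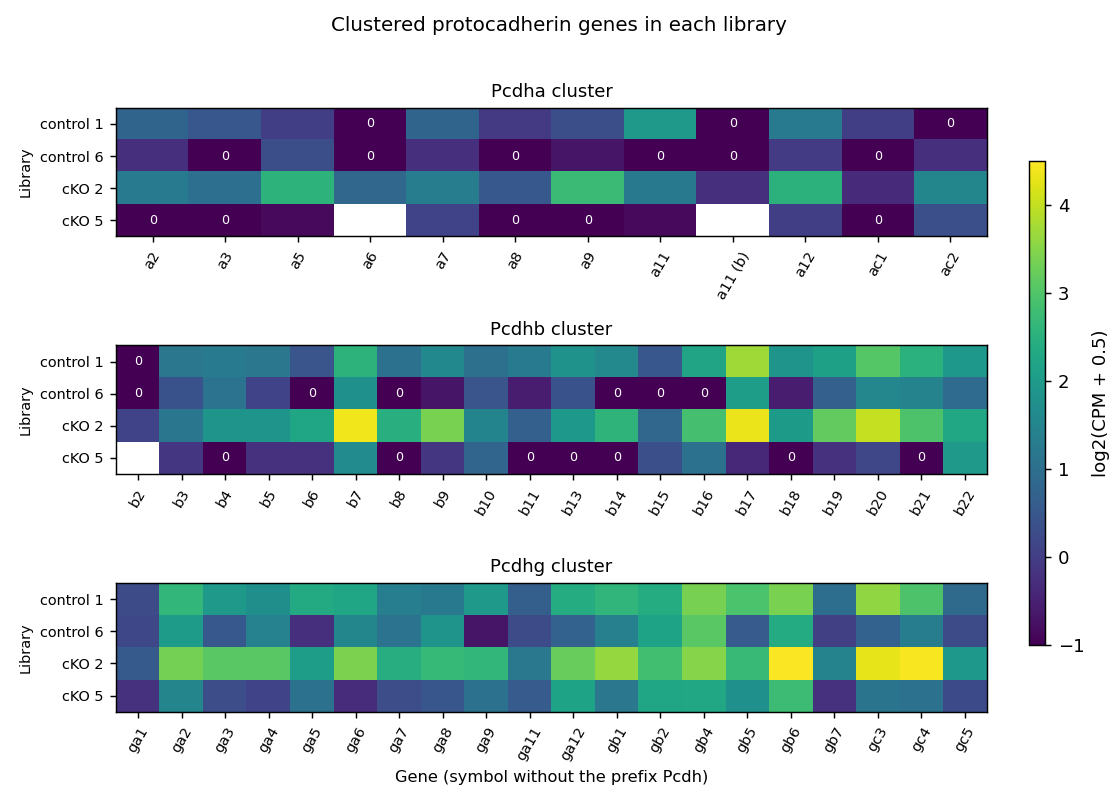
Levels of the 52 clustered protocadherin genes in the 4 libraries, as a colour scale of log2(CPM + 0.5) with a row for each library, where "0" marks a gene without reads, white marks a gene not listed for cKO 5 and "a11 (b)" is the second identifier of Pcdha11. Every Pcdhg gene has reads in each library, while 6 Pcdhb genes in control 6 and 7 in cKO 5 have none.

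In the 2 libraries with the highest microglia sums, the Pcdha and Pcdhb clusters were sampled sparsely and unevenly. Of the 20 Pcdhb genes, 6 had no reads, 3 had 1 to 4 reads and 11 had 5 or more in control 6. In cKO 5, 7 had no reads, 12 had 5 or more, 1 was not listed and none had 1 to 4. Pcdhb8 and Pcdhb14, picked out after their values were seen, were without reads in both libraries, and had 28 and 44 reads in control 1 and 86 and 95 in cKO 2. A count of 0 allows up to 0.174 CPM in control 6 and 0.155 CPM in cKO 5. Among the Pcdha genes, 6 of 12 had no reads in control 6 and 5 of 12 in cKO 5, where 2 more were not listed.

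Shares of the reads of a cluster do not depend on how libraries are scaled. Pcdhb17 held 19.2% of the Pcdhb reads in control 1 (exact 95% binomial interval 16.96 to 21.6), 19.6% in control 6 (15.4 to 24.3) and 15.4% in cKO 2 (13.96 to 17.02), but 2.08% in cKO 5 (0.680 to 4.80). Pcdhb22 held 27.1% in cKO 5 (21.6 to 33.2), against 3.49% to 7.34% in the other libraries. In these 2 genes the shares in cKO 5 were unlike those in the other 3 libraries. The share intervals take reads as independent molecules, which is not known here, so they may be too narrow. In cKO 5, 7 Pcdhb genes had no reads, 0 had 1 to 4 and 12 had 5 or more. Pcdhb16 held 12.9% of the Pcdhb reads in cKO 5 and none in control 6, where the interval reached 1.12%.

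In the Pcdhg cluster, Pcdhgb4 held 19.6% of the reads in control 6 (16.8 to 22.8) and 11.5% in cKO 5 (9.32 to 14.1), against 10.5% in control 1 (9.04 to 12.1) and 6.32% in cKO 2 (5.47 to 7.26). The intervals of control 1 and cKO 5 overlapped. Pcdhgc3 held a larger share in the 2 high libraries, with 12.2% in control 1 and 11.3% in cKO 2 but 2.82% in control 6 and 4.34% in cKO 5. Its intervals in the 2 high libraries (10.6 to 13.9 and 10.1 to 12.5) lay above those in the low ones (1.73 to 4.33 and 2.99 to 6.07). Pcdhgb2 held a larger share in the 2 low libraries, at 9.89% and 11.3% of the Pcdhg reads in control 6 and cKO 5 and at 5.12% and 3.89% in control 1 and cKO 2.

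Between control 6 and cKO 5, the intervals of 9 of 20 Pcdhb genes did not overlap, and 55.9% of the Pcdhb reads would have to move to another gene to make the shares equal. Control 1 and cKO 2, with more reads, were closer, since 6 of 20 Pcdhb genes had separate intervals and 17.5% of reads would have to move. For Pcdhg, the corresponding figures were 9 of 20 genes and 29.3% between control 6 and cKO 5, and 5 of 20 genes and 14.5% between control 1 and cKO 2. These comparisons are between single libraries, on intervals that take reads as independent, and fewer reads raise such differences by counting error. They were as large within a genotype, with 24.6% of Pcdhb reads between the controls and 52.4% between cKO 2 and cKO 5.

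**Figure D4:**
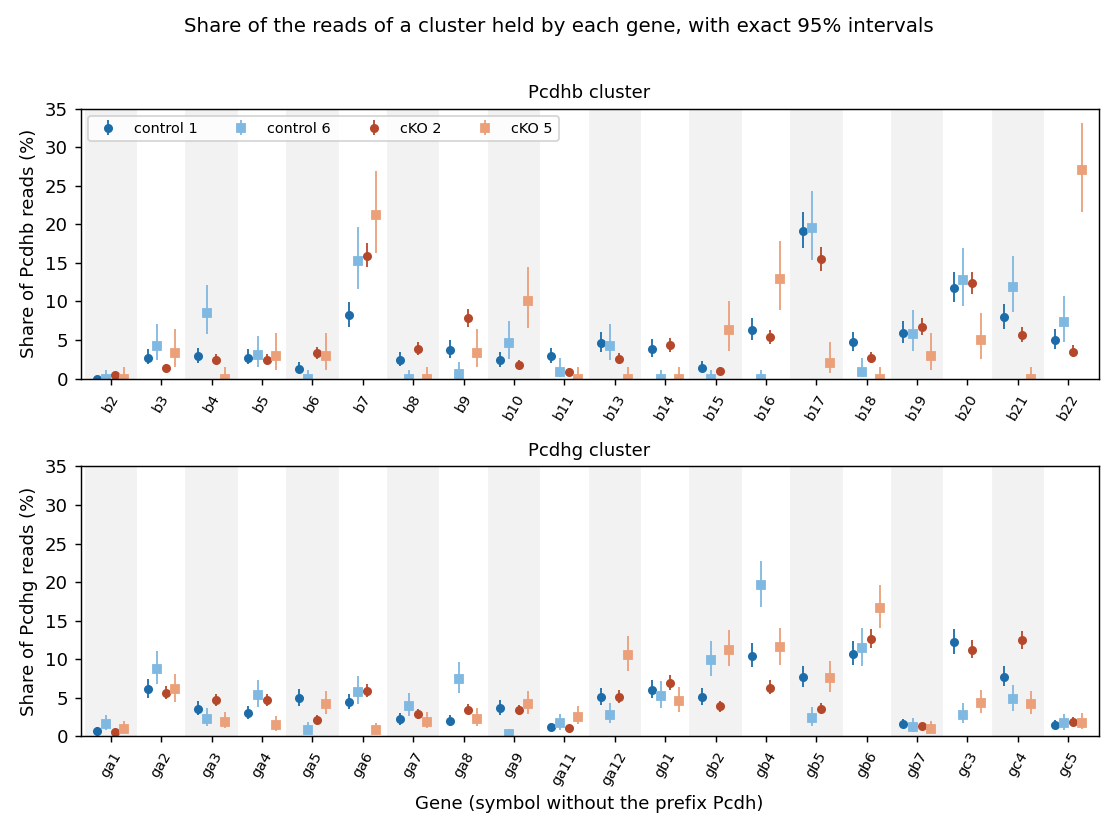
Share of the reads of the Pcdhb cluster (top) and the Pcdhg cluster (bottom) held by each gene, in percent, with exact 95% binomial intervals as bars and a point for each of the 4 libraries. Pcdhb22 reaches 27.1% in cKO 5 and at most 7.34% elsewhere, and Pcdhgc3 is above 10% in control 1 and cKO 2 alone.

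The comparison the design implies is that of the genotypes, over 2 libraries each. After leaving out genes with low counts or not listed for every library, 58 of the 64 members were tested (47 clustered and 11 non-clustered). The other 6 were 4 Pcdha genes, Pcdhb2 and Pcdh15, and 3 of these were not listed for cKO 5. Of these 58, 0 passed an adjusted p of 0.05 in the edgeR quasi-likelihood test, as did 0% of all 15951 genes tested, and 0 had an unadjusted p under 0.05, against 0.307% of all genes (49 genes). DESeq2 and limma-voom likewise gave 0 members and 0 genes past the adjusted threshold, and 0 members with an unadjusted p under 0.05, against 74 and 37 of all genes.

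The fitted difference was positive in 44 members and negative in 14, with a median log2 fold change of 0.54, against 0.03 and 52.8% positive over all genes tested. Scaling on the microglia markers instead made 56 of 58 positive, but it moved the median of all genes to 0.76 and made 88.8% of them positive. By family, 18 of 20 Pcdhg, 13 of 19 Pcdhb, 7 of 8 Pcdha and 6 of 11 non-clustered genes were positive. These counts rest on cKO 2, which was the highest library of 56 of the 64 members, or 87.5%, against 47.8% of all genes. Without cKO 2, the difference was positive in 8 of 58 members, against 47.9% of all genes tested. Without control 1 it was positive in 55 of 60, against 55.7% of all genes. It was positive in 31 of 60 without control 6 and in 58 of 60 without cKO 5, against 56.9% and 51.4% of all genes.

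Both cKO libraries lay above both controls in 4 of the 58 members after scaling by TMM factors, and below them in 0, where 8.33% and 7.64% of all genes did so. The share of members above was thus close to that of all genes. The 4 were Pcdhac2, Pcdhb22, Pcdhga11 and Pcdhgb2. Pcdhac2 had a log2 fold change of 2.92 ± 1.81 (SE, edgeR quasi-likelihood test, adjusted p = 0.9997), at counts of 0, 6, 41 and 15. Only its cKO counts reached the filter's minimum of 10, so its place among the 4 is partly set by the filter. For Pcdhb22, the change was 0.67 ± 0.75, at 3.32 and 1.39 CPM in control against 4.45 and 3.37 in cKO. Pcdhga11 had control levels of 1.09 and 0.696 CPM and cKO levels of 1.79 and 0.984 CPM, and Pcdhgb2 is given above. Before TMM scaling, Pcdhga11 and Pcdhgb2 overlapped between the genotypes. For Pcdhac2 the log2 fold change was 1.89 without control 1 and 7.76 without control 6, where the remaining control had 0 reads and the fitted value depends on the prior count. For Pcdhb22 it was 1.29 without control 1 and 0.23 without control 6.

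Summed by family, the genotypes also overlapped. On the scale log2(CPM + 0.5), with CPM divided by the TMM factors, the difference of cKO from control was 0.51 for Pcdha, 0.10 for Pcdhb, 0.30 for Pcdhg and 0.08 for delta1. The exact two-sided permutation test gave p = 1.0 for each, and with 2 against 2 libraries it cannot go below 0.333. For delta2 the difference was -0.29 and for the other non-clustered genes -0.47, and both turned positive (0.35 and 0.16) when libraries were scaled on microglia markers. Without cKO 2, all 6 sums were lower in cKO, by 0.59 to 2.08 on the log2 scale.

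The authors' deposited tables compare single libraries, and their calls for members differed with the pair of libraries. Comparisons with a library in common are not independent. In the authors' deposited table of cKO 2 against control 1, 29 of 64 members were called higher and 0 lower, against 20% and 11.6% of all genes. The authors' deposited table of cKO 2 against control 6 called 58 of 64 higher and 0 lower (33.7% and 13.4% of all genes). For cKO 5 against control 1, the authors' deposited table called 1 of 61 members higher and 50 lower (8.79% and 26%). In the authors' deposited table of cKO 5 against control 6, 8 of 52 were called higher and 17 lower (9.23% and 11.4%). In this last pair, 4 Pcdhb and 4 Pcdhg genes were called higher, and 6 Pcdhb, 4 Pcdhg, 2 Pcdha and 5 non-clustered genes lower. Both shares of members were above those of all genes, more so for the lower calls. The part of the marker sums in these calls was not tested.

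The genes that act with protocadherins gave 0 adjusted p-values under 0.05 and 0 unadjusted ones in the edgeR quasi-likelihood test, in 4 lists with 20, 20, 12 and 9 genes tested. Of 20 genes of promoter choice and cohesin, 9 had a positive and 11 a negative difference (median log2 fold change -0.03). Its 3 genes with the smallest unadjusted p were the zinc finger gene Wiz (54.4, 36.8, 89.0 and 39.9 CPM in controls 1 and 6 and in cKO 2 and 5), the histone methyltransferase gene Ehmt1 (95.5, 48.5, 146 and 63.3 CPM) and the cohesin subunit gene Stag2 (108, 79.3, 78.7 and 81.6 CPM). Of 20 intracellular partners, 7 were positive and 13 negative, with a median of -0.06. The kinase gene Abl1 was lower in both cKO libraries than in both controls (114 and 83.7 CPM against 71.5 and 75.1), with a log2 fold change of -0.49 ± 0.32 (SE, edgeR quasi-likelihood test, adjusted p = 0.9997). Under scaling on microglia markers, that of Abl1 was 0.08. Wasf1 and Cyfip2, of the WAVE complex that delta2 protocadherins recruit to actin, were highest in cKO 2, at 32.2 and 85.0 CPM, against 7.02 to 12.3 and 10.8 to 28.2 CPM in the other libraries.

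Most of the other cadherins tested had a positive difference, as did 52.8% of all genes tested. Of 12 classical and type II cadherins tested, 10 had a positive and 2 a negative difference (median log2 fold change 0.74). Cdh8, a type II cadherin of cortical neurons, had 19.7, 4.24, 62.9 and 2.95 CPM in controls 1 and 6 and in cKO 2 and 5, Cdh6 had 6.70, 1.74, 19.4 and 1.24, and Cdh13 had 24.7, 8.30, 61.9 and 6.42. Of 9 Fat, Dachsous and Celsr cadherins tested, 7 had a positive and 2 a negative difference (median 0.41). Celsr3, needed for axon tracts, had 4.41, 1.57, 14.8 and 2.64 CPM in that order, Fat3 had 5.27, 1.91, 15.1 and 3.004, and Celsr2 had 60.2, 21.5, 170 and 20.4. Each of these 6 cadherins was highest in cKO 2, as were 47.8% of all genes tested. Without cKO 2, the log2 fold change of each of the 6 was negative, from -0.029 for Celsr3 to -1.86 for Cdh8.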

How the data were processed

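Per the labels' protocols, Trizol was used to extract RNA and sequencing was Illumina. The tools Bowtie2 2.2.3, TopHat2 2.0.12 and HTSeq 0.6.0 and the mm9 build are named in the submitters' processing notes, without roles or settings, and strandedness is not stated. Gene positions of 62 of the 64 members nevertheless equalled those of the GENCODE M21 annotation (GRCm38), and GRCm38 is therefore named beside coordinates.

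Raw read counts per Ensembl gene were deposited by the authors in 4 tables, 1 for each pairing of a cKO with a control library. The deposited normalized values are CPM, where a count of 0 stands as 0.5 reads. Each deposited fold change divides cKO by control CPM as a ratio, also deposited as log2. Which test gave the deposited p-value is not stated.

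Counts were joined by Ensembl ID, and a gene not listed for a library (3 members for cKO 5) was left out of the tests and taken as 0 in sums. The genotypes were compared over all 15951 genes in edgeR 4.0.16 under R 4.3.3 (quasi-likelihood test), with TMM factors (1.03, 0.917, 1.15 and 0.919 for control 1, control 6, cKO 2 and cKO 5), filterByExpr at its minimum count of 10 and p-values adjusted after Benjamini and Hochberg at 0.05. Printed CPM were not divided by the TMM factors. The test was also run on simulated counts, with the same dispersion for all genes and no marker differences between libraries of a genotype. Marker sums did differ within a genotype here, so that run does not show how the test performs on these data. Genes per length used exonic bases held by no other gene. Ratios between libraries carry 95% conditional binomial intervals and shares Clopper-Pearson intervals. The 2-fold counts between libraries set no minimum on reads. Alternatives were DESeq2 1.42.0, limma-voom (limma 3.58.1), DESeq2 size factors, scaling on microglia markers, no filter, a pseudocount of 1 CPM and leaving out each library. Members and lists were chosen with earlier results of these data known. Named were all non-clustered and C-type genes, the 4 most abundant genes of each cluster, members whose groups did not overlap, Bach1, and the 3 genes of each list with the smallest p.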

Additional observations from a re-analysis of the deposited data

How the results depend on the processing

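No gene and no member passed the adjusted threshold under any setting tried. Replacing TMM by DESeq2 size factors, dropping the filter, the DESeq2 test, a pseudocount of 1 CPM and leaving the most abundant gene out of the Pcdhb and Pcdhg sums changed no sign. Leaving out 1 library at a time turned the sign of most values (a group then left with 1 library is assumed to vary like the other). Of the 28 named members with a fit, 16 changed sign without cKO 2, 7 without cKO 5, 6 without control 1 and 4 without control 6. The leave-one-out ranges of the log2 fold change were Pcdh1 -1.89 to 0.11, Pcdh7 -2.21 to 1.57, Pcdh8 -2.26 to 3.10, Pcdh9 -1.55 to 2.32, Pcdh10 -0.72 to 1.82, Pcdh11x -3.07 to 1.99, Pcdh12 -2.69 to 1.47, Pcdh17 -3.59 to 1.28, Pcdh18 -2.77 to 1.88, Pcdh19 -2.51 to 1.17, Pcdh20 -7.96 to 3.15 and Pcdha5 -3.36 to 2.80. Those of the other members were Pcdha9 -5.89 to 4.30, Pcdha11 -4.67 to 6.87, Pcdha12 -1.05 to 2.30, Pcdhb7 -0.51 to 2.07, Pcdhb17 -4.79 to 1.07, Pcdhb20 -2.87 to 1.43, Pcdhb21 -9.01 to 0.74, Pcdhgb4 -0.91 to 0.028, Pcdhgb6 -0.074 to 1.33, Pcdhgc3 -1.74 to 2.82, Pcdhgc4 -1.36 to 2.19, Pcdhgc5 -0.48 to 1.44, Pcdhac2 1.89 to 7.76, Pcdhb22 0.23 to 1.29, Pcdhga11 0.27 to 0.77 and Pcdhgb2 0.071 to 0.34. For other genes they were Wiz -0.068 to 0.73, Ehmt1 -0.050 to 0.87, Wasf1 -0.12 to 1.51, Cyfip2 -0.59 to 1.91, Cdh6 -1.60 to 2.22, Cdh8 -1.86 to 2.60, Cdh13 -1.21 to 1.71, Celsr2 -0.85 to 1.85, Celsr3 -0.029 to 2.16, Fat3 -0.11 to 1.94 and Bach1 -0.46 to 0.45. Summed families ranged over Pcdha -1.12 to 2.15, Pcdhb -1.36 to 1.59, Pcdhg -0.59 to 1.20, delta1 -1.5002 to 1.68, delta2 -2.06 to 1.505 and other non-clustered -2.08 to 1.16. Members with a positive difference numbered 8 to 58. Of the libraries left, cKO lay above control in 19 members without control 1 and 4 without control 6 (24.4% and 20.7% of all genes). It did so in 4 members without cKO 2 and 50 without cKO 5 (33.2% and 39.7% of all genes). It lay below control in 0 members without control 1 and 10 without control 6 (24.0% and 21.9% of all genes). Without cKO 2 and without cKO 5, it lay below in 37 and 0 members (33.0% and 35.9% of all genes).

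Scaling on microglia markers turned Pcdh1 to 0.42, Pcdh12 to 0.43, Pcdh17 to 0.90, Pcdh18 to 0.84 and Pcdh19 to 0.70. It also turned Pcdhb21 to 0.95, Pcdhgb4 to 0.60, Stag2 to 0.30, Abl1 to 0.080 and Bach1 to 0.32. The delta2 sum turned to 0.35 and the sum of the other non-clustered genes to 0.16. That scaling left 1 of 58 members with both cKO libraries above both controls, against 5.36% of all genes tested. Limma-voom turned Pcdh7 to -0.18, Pcdh11x to -0.39, Pcdh20 to -1.22, Pcdha11 to 0.13, Pcdhb17 to -1.56 and Pcdhb20 to -0.50. It made 34 of 58 members positive, against 47.0% of all genes tested. The causes were not tested. Alternatives for the counts of positive and of non-overlapping members, and for the genes that are no members, were chosen after seeing the data. No paired analysis was possible because the genotypes share no replicate number.

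With 2 libraries per genotype, no gene passed the edgeR test at any fitted difference, up to a log2 fold change of 8.20, and no detection limit was computed for members. Of the 12 Pcdha genes, 4 had too few reads to be tested.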
